A study of Mus musculus with 80 samples.

Results

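Left ventricular tissue of female C57Bl/6J mice given a mixed radiation field at 50 cGy was compared with that of female mice given a sham exposure at 0 cGy, all on the normal diet. The libraries were chosen by their labels: 10 mixed field libraries (titles F1 to F5 and F21 to F25) and 10 sham libraries (F6 to F10 and F26 to F30), 20 of the 80 libraries of the series. The other 60 libraries were male mixed field and sham mice, mice of both sexes given gamma rays at 100 cGy, and mice of both sexes on a Western diet. The series is titled for the lasting effects of radiation and diet on this tissue. The labels do not name the components of the mixed field, and give no age, no time after exposure and no hour of collection. Within a group the libraries are numbered 1 to 10 in accession order, so that libraries 1 to 5 carry titles 1 to 20 and libraries 6 to 10 carry titles 21 to 40. The main fit held a term for these runs of title numbers, and fits without it are named as such. No label says what sets the runs apart or that each library came from its own animal. The p-values below therefore measure only the scatter among the libraries, part of which can be technical.

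Poly-A selected RNA was sequenced in pairs and the deposited table holds read counts per gene, with 13532930 to 19746067 counts in each of the 20 libraries. Levels are given as CPM, a gene's counts relative to those of its library after scaling for composition, with scaling factors of 0.9374 to 1.046, and differences as log2 of mixed field over sham with their standard errors (SE). Xist, the RNA of the inactive X chromosome, lay between 118.5 and 280 CPM in the mixed field libraries and between 102.2 and 153.2 CPM in the sham libraries. Myh6, the main myosin heavy chain of the mouse ventricle, lay between 22690 and 35620 CPM over both groups, whereas Myl7, which marks atrial muscle, did not exceed 0.4521 CPM. The most similar pairs within a group, mixed field libraries 1 and 3 and sham libraries 6 and 8, differed by 4.25 and 4.82 times counting noise (chi-square per degree of freedom). Some libraries stood apart: mixed field library 5 in red cell and T cell genes, mixed field library 10 in several genes named below, and sham library 10 in macrophage genes. Genes named for the mixed field comparison in which one of these libraries was far from the rest are also given without it. Overlap between groups, and the count of mixed field libraries above or below the sham median, are given below only for genes picked by their values. The share of all genes whose groups did not overlap was not counted, nor was the share with as many libraries on one side of the sham median. Among the female gamma libraries used further on, libraries 8 and 9 differed by 1.62 times counting noise, against 7.08 for the next closest gamma pair. No label says whether that pair came from 1 animal, and the gamma results are also given with the pair counted once, chosen after seeing the data.

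Ionising radiation breaks DNA, and cells answer through the p53 pathway, which raises Cdkn1a and other genes that halt division or repair DNA. Heart muscle divides little and lives on fatty acids. Loss of capillary endothelium, entry of immune cells, fibrosis and changes in mitochondria are the slow effects for which radiation of the heart is known. The ventricle also runs a circadian clock, in which BMAL1 with CLOCK or NPAS2 drives the period and cryptochrome repressors, the REV-ERB receptors and the output factors DBP, TEF and HLF, while REV-ERB and ROR receptors set the level of Bmal1 itself.

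No gene passed the test between mixed field and sham. Of 15879 genes, 0 were called at an adjusted p under 0.05 (0% of those tested), and the smallest adjusted p was 0.31 (edgeR's quasi-likelihood test). At an unadjusted p under 0.05 there were 1293 genes, 8.14% of those tested, against 794 at that threshold if no gene differed. Of these 632 (3.98%) were higher and 661 (4.16%) lower with the mixed field. The median log2 difference over all genes was 0.0033 with a median SE of 0.12, and 8102 genes (51%) had a positive sign. DESeq2 also called 0 genes (1349 at an unadjusted p under 0.05). The voom fit of limma called 1 (1394 unadjusted), the pseudogene Gm16574 at a log2 difference of 1.19 and an adjusted p of 0.0402. Fits to a single run of titles called more: 39 genes with titles 1 to 20 alone and 4 with titles 21 to 40 alone. The 20 genes of smallest p that the naming rule admits had adjusted p-values between 0.31 and 0.351, and all but 1 are named below. Red cell genes and Bmal1 of the circadian clock were among them.

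Among those named, the red cell genes and Tent5c had the largest differences by size. Hba-a1, an alpha-globin gene (chromosome 11, 32233186 to 32234504 on GRCm39), stood at 206.1, 169.7, 235.7, 100.8 and 1313 CPM in mixed field libraries 1 to 5 and at 127.1, 89.15, 307.3, 374.8 and 638.9 CPM in libraries 6 to 10. The sham libraries gave 176.7, 99.56, 153.6, 126.1 and 172.5 CPM in libraries 1 to 5 and 126.2, 30.92, 67.21, 74.22 and 153.6 CPM in libraries 6 to 10. The groups overlapped in both runs, with 8 of 10 mixed field libraries above the sham median, and library 5 stood far above the rest. The log2 difference was 1.60 with an SE of 0.43 (adjusted p = 0.31).

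Mixed field library 5 was also the highest in Alas2 and Tent5c. Alas2, the first enzyme of haem synthesis in red cells, spanned 4.581 to 114.4 CPM with the mixed field and 2.74 to 14.06 CPM with sham, a log2 difference of 1.49 with an SE of 0.42 (adjusted p = 0.351). Hba-a2, a second alpha-globin gene, gave 1.79 with an SE of 0.45 (adjusted p = 0.31). Without mixed field library 5, Hba-a1 was at 1.06 (SE 0.42), Hba-a2 at 1.36 (SE 0.45), Alas2 at 0.79 (SE 0.39) and Tent5c at 0.91 (SE 0.34). Globin copies are near-identical, so the split of reads between Hba-a1 and Hba-a2 is uncertain. Tent5c and Slc25a37 are not on the erythroid list. Tent5c, a poly(A) polymerase, spanned 2.315 to 27.76 CPM against 1.546 to 2.827 CPM, at 1.55 with an SE of 0.37 (adjusted p = 0.31), and all 10 mixed field libraries lay above the sham median. Slc25a37, the mitochondrial iron importer mitoferrin, spanned 25.04 to 47.52 CPM against 18.95 to 28.78 CPM, at 0.41 with an SE of 0.11 (adjusted p = 0.31), with no overlap in titles 21 to 40. Its highest value was that of mixed field library 10, without which it was at 0.33 (SE 0.10).

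Of the 12 genes on the erythroid list 10 were tested, since Ahsp and Epb42 were too low. A positive sign was found in 9 of the 10, against 51% of all genes. The list's median log2 difference was 1.69 against 0.0033 over all genes. At an unadjusted p under 0.05 there were 8, and 0 were called. The 2 members that did not reach it were Bpgm, which makes the red cell's 2,3-bisphosphoglycerate (0.21, SE 0.12), and Tfrc, the transferrin receptor (-0.12, SE 0.26), which other cells of the heart also express. The list's summed level spanned 245.6 to 3910 CPM (median 688.4) with the mixed field and 156.1 to 575.7 CPM (median 381.9) with sham. Without mixed field library 5 the median difference was 1.07 with 8 of 10 positive, without library 10 it was 1.48, and without both it was 0.82 with 8 of 10 positive. In bulk tissue, more cells of a type cannot be told apart from more RNA per cell, and the part of blood left in the tissue was not tested.

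**Figure D1:**
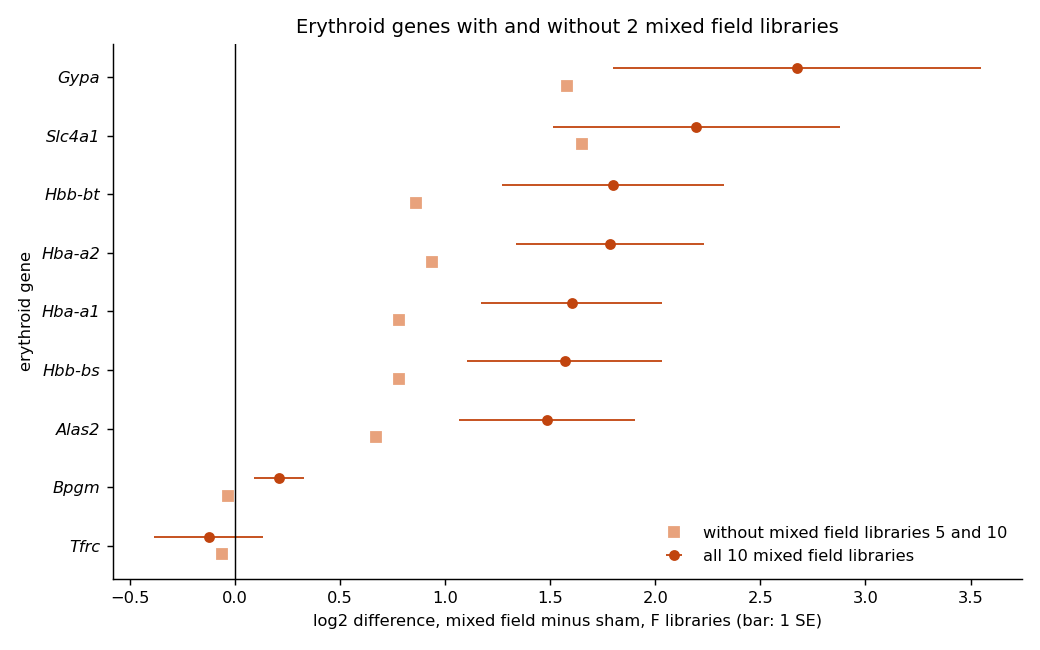
Log2 difference between mixed field and sham in F libraries for 9 of the 10 tested erythroid genes, with all 10 mixed field libraries (circles, bars of 1 SE) and without mixed field libraries 5 and 10 (squares). Without these libraries the median over all 10 genes moved from 1.69 to 0.82.

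Bmal1, the activator at the centre of the clock and 1 of the 20 genes of smallest p (chromosome 7, 112806152 to 112914735 on GRCm39), stood at 12.05, 8.992, 15.15, 9.266 and 7.629 CPM in mixed field libraries 1 to 5, and at 4.899, 2.681, 4.414, 5.215 and 5.624 CPM in sham libraries 1 to 5. In libraries 6 to 10 the mixed field gave 1.511, 2.069, 6.488, 4.527 and 4.026 CPM, and sham 2.514, 0.9837, 1.76, 2.06 and 2.274 CPM. The groups did not overlap in titles 1 to 20 and did in titles 21 to 40, where both stood lower. The log2 difference was 1.10 with an SE of 0.28 (adjusted p = 0.31), 1.22 in titles 1 to 20 and 0.93 in titles 21 to 40. Npas2, the other partner on the activating side, spanned 1.295 to 6.623 CPM against 0.9428 to 3.197 CPM, at 0.71 with an SE of 0.25 (adjusted p = 0.453). Clock itself differed by 0.04 with an SE of 0.11. On the clock list only Bmal1, Tspan4 and Tef come under the naming rule, and the others were named after their values were seen.

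The 3 output factors of the clock had the opposite sign. Dbp, an output transcription factor (chromosome 7, 45354512 to 45359627), stood at 45.81, 63.34, 27.47, 70.08 and 80.31 CPM in mixed field libraries 1 to 5 against 138.8, 147.5, 132.2, 112.3 and 78.94 CPM in the sham libraries of that run. The groups overlapped there through sham library 5. In titles 21 to 40 the mixed field libraries spanned 125 to 148 CPM and the sham libraries 108.2 to 180.7 CPM. The difference was -1.09 with an SE of 0.24 in titles 1 to 20, where Dbp was among 15 called genes (0.0945% of those tested, adjusted p = 0.0463), and 0.04 with an SE of 0.23 in titles 21 to 40. The call in titles 1 to 20 was lost in 9 of 20 fits that left out a library (-0.91, adjusted p = 0.179 without mixed field library 3). Hlf, of the same family, spanned 10.43 to 50.68 CPM against 27.18 to 50.38 CPM, at -0.60 with an SE of 0.19 (adjusted p = 0.452). Tef, of the same family, spanned 113.1 to 273.1 CPM against 176.1 to 289.3 CPM, at -0.30 with an SE of 0.11 (adjusted p = 0.453).

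The repressors named here also had negative signs. Nr1d2, which encodes REV-ERB beta, spanned 54.15 to 127.5 CPM against 69.32 to 132.5 CPM, at -0.28 with an SE of 0.11 (adjusted p = 0.541), whereas Nr1d1, its REV-ERB alpha counterpart, gave -0.07 with an SE of 0.13. Ciart, a further repressor, gave -0.54 with an SE of 0.22 (adjusted p = 0.541), with the mixed field below sham without overlap in titles 1 to 20 alone. Per1, Per2 and Per3 lay between -0.29 and -0.13, and Cry1 and Cry2 at -0.14 and -0.21. The list also holds Tspan4, a tetraspanin of the cell surface that is no core part of the clock and was listed with earlier results of these data known. Tspan4 (chromosome 7, 141055138 to 141073340), spanned 15.82 to 34.82 CPM (median 24.4) with the mixed field and 19.96 to 42.82 CPM (median 30.96) with sham. It was below the sham median in 8 of 10 mixed field libraries, and the groups overlapped in both runs. Its log2 difference was -0.34 with an SE of 0.09 (adjusted p = 0.31), almost the same in titles 1 to 20 (-0.34) as in titles 21 to 40 (-0.35).

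Over the clock list of 21 genes, all tested, 4 had a positive sign and the median difference was -0.21. Unadjusted p under 0.05 was reached by 11 genes, 3 higher and 8 lower, and 0 were called. Beside Bmal1 and Npas2, the higher ones included a member that is not named here, so the genes named do not show the whole list. The median was -0.31 in titles 1 to 20 and -0.06 in titles 21 to 40. Without Tspan4 the median over 20 genes was -0.17, at -0.27 and -0.05 in the 2 runs. The hour of collection is not given in the labels, and its part in these values was not tested.

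Promoters of Bmal1, Tef and Tspan4, the 3 genes of the clock list that the naming rule takes, are shown because the clock acts through short motifs in promoters. The windows are 300 bases around annotated start sites, from RefSeq on GRCm38.p6, a build older than that of the counts, and their coordinates hold for that build alone. A search on both strands used 3 motifs: the E-box CACGTG that BMAL1 and its partners bind, the core AGGTCA of the element that REV-ERB and ROR receptors bind, and the D-box TTANGTAA that DBP, TEF and HLF bind. Capitals mark a match. Of 32851 promoter windows of the mouse, 7.15% held CACGTG, 16.3% AGGTCA and 2.32% TTANGTAA.
Bmal1, second start site, chr7:113207261-113207560: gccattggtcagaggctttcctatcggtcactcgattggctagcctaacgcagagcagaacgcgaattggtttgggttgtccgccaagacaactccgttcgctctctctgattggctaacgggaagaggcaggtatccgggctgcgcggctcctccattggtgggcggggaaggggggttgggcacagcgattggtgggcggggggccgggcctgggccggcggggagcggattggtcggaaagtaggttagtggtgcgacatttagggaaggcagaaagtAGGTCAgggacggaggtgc
Tspan4, second start site, chr7:141476130-141476429: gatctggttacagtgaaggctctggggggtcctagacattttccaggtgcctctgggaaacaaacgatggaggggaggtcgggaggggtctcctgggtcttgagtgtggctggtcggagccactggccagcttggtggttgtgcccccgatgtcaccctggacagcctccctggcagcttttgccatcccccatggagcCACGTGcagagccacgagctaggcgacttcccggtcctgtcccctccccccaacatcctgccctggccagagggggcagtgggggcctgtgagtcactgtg
Tef, first start site, chr15:81802423-81802722: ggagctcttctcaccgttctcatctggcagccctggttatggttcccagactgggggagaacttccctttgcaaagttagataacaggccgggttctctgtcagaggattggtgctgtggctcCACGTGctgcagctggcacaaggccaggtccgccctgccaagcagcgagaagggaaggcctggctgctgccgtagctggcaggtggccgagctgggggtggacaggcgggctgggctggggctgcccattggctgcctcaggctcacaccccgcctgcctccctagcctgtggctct
Tef, second start site, chr15:81811164-81811463: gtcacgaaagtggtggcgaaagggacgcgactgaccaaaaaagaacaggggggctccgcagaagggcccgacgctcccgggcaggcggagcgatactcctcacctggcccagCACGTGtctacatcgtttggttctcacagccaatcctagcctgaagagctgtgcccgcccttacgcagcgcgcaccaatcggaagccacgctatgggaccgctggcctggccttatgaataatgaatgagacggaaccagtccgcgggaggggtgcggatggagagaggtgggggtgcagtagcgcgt
The Bmal1 window held 1 match to AGGTCA, and the windows of Tspan4 and Tef shown held 1 CACGTG each. The other windows of Bmal1 and Tspan4, and the single window of Dbp, held no match to the 3 motifs. A match describes the letters in a window and does not show binding.

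**Figure D2:**
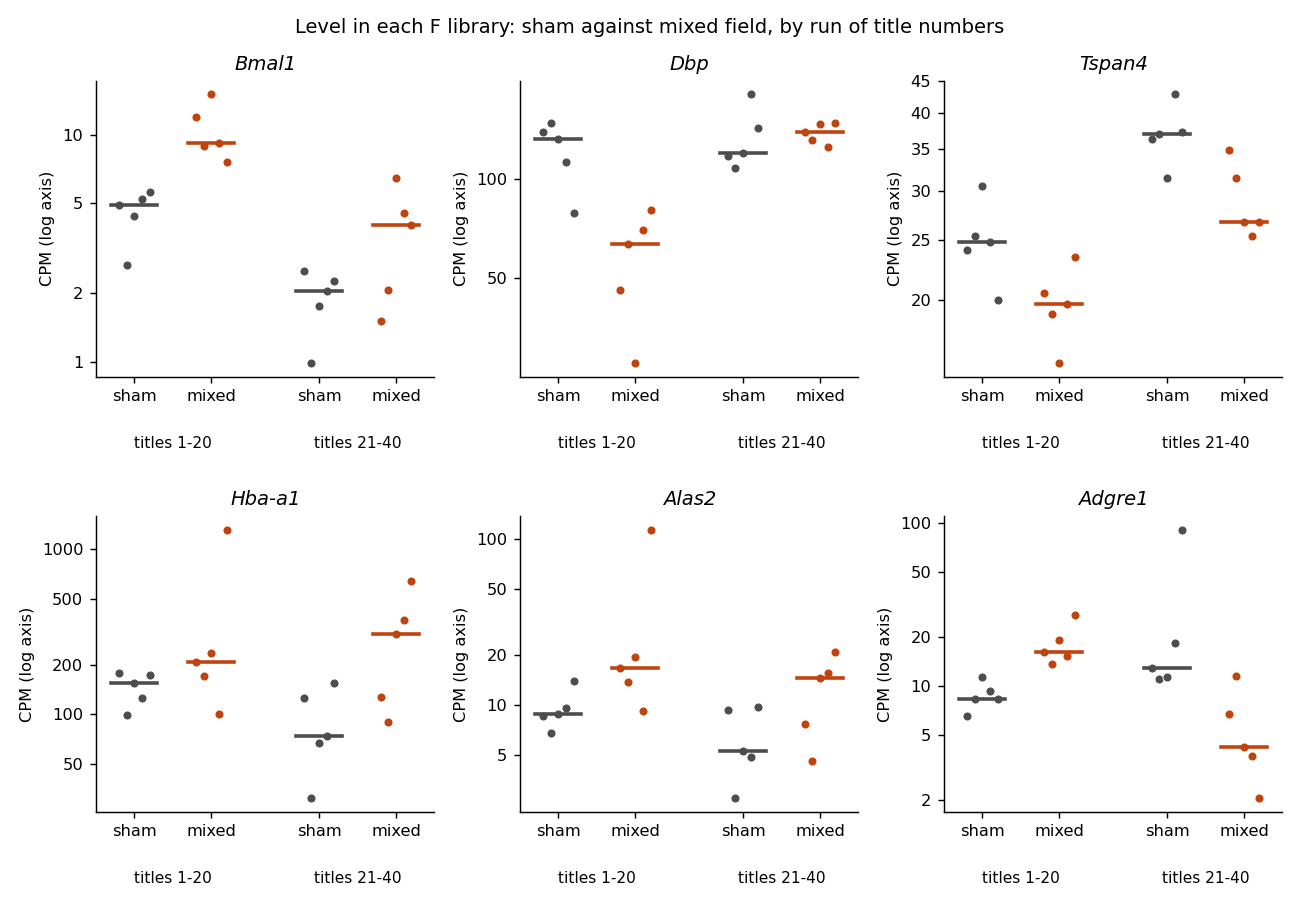
CPM on a log axis in each F library for Bmal1, Dbp, Tspan4, Hba-a1, Alas2 and Adgre1, with sham in grey and mixed field in orange, split by run of title numbers; lines mark medians of 5 libraries. Bmal1 was separate between groups in titles 1 to 20, Hba-a1 and Alas2 were highest in mixed field library 5, and Adgre1 was highest in a sham library of titles 21 to 40 at 90.47 CPM.

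Cops8, a subunit of the COP9 signalosome and also among the 20, spanned 52.73 to 82.31 CPM with the mixed field and 75.05 to 92.58 CPM with sham, and all 10 mixed field libraries lay below the sham median of 83.58 CPM. Its log2 difference was -0.23 with an SE of 0.06 (adjusted p = 0.31), at -0.23 in titles 1 to 20 and -0.24 in titles 21 to 40. Slc25a33, a mitochondrial pyrimidine nucleotide carrier, spanned 8.138 to 11.82 CPM against 11.2 to 15.58 CPM, at -0.41 with an SE of 0.11 (adjusted p = 0.328), with all 10 mixed field libraries below the sham median and the groups separate in titles 1 to 20. Mtrfr, a mitochondrial translation release factor, spanned 10.26 to 13.71 CPM against 12.59 to 18.49 CPM, at -0.27 with an SE of 0.07 and all 10 below the sham median. In these 3 genes every mixed field library lay on one side of the sham median. They were picked by their p-values in the same libraries, and none passed the test.

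Coq10b, which supports coenzyme Q (-0.36), Ostc, of the oligosaccharyltransferase (-0.29), Ifngr2, the second chain of the interferon gamma receptor (-0.31), Sypl1 (-0.24) and Trappc2, of the vesicle tethering complex TRAPP (-0.32), each lay below the sham median in 9 of 10 mixed field libraries, with SEs of 0.07 to 0.09. Mast2, a kinase (0.23), lay above the sham median in all 10, and Cep85, a centrosome protein (0.25), and Aasdh (0.41) did so in 9. Without mixed field library 10, the lowest in Sypl1 and the highest in Mast2, Sypl1 was at -0.19 and Mast2 at 0.17. Ifngr2 spanned 85.17 to 181.7 CPM against 163.4 to 193.3 CPM, and its groups were separate in titles 1 to 20. Spon2, a secreted matrix protein, spanned 1.08 to 13.06 CPM against 0.8171 to 3.393 CPM, at 1.24 with an SE of 0.32 (adjusted p = 0.31), and was separate in titles 1 to 20.

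No gene of the DNA damage response was called. Of 35 p53 targets, all tested, 20 had a positive sign, the median difference was 0.04, 2 reached an unadjusted p under 0.05 and 0 were called. Cdkn1a, the cell cycle inhibitor p21 and a standard reporter of p53, spanned 14.68 to 68.99 CPM (median 35.61) with the mixed field and 13.07 to 45.99 CPM (median 21.11) with sham. The groups did not overlap in titles 1 to 20 (1.11, SE 0.34) and did in titles 21 to 40 (0.10, SE 0.34), for 0.59 with an SE of 0.27 over both (adjusted p = 0.569). Polk, a polymerase that copies past DNA lesions, was the other (0.27, SE 0.12). Of 48 genes of DNA damage sensing and repair 23 were positive, the median was -0.01, and Rad52, of homologous recombination, had the smallest p (0.31, SE 0.13, adjusted p = 0.541). Of 30 cell cycle and replication genes 9 were positive with a median of -0.10, and the helicase subunits Mcm5 (-0.57, SE 0.19) and Mcm2 (-0.35, SE 0.14) had the smallest p. The cell cycle list had opposite signs in the 2 runs, with a median of 0.20 and 23 of 30 positive in titles 1 to 20 and of -0.56 and 1 of 30 positive in titles 21 to 40. Its 1 gene of 30 called in the difference between runs was Ccnd1, cyclin D1 (-1.07, SE 0.27, adjusted p = 0.0364). Of all genes 1.07% were called in that direction. The call of Ccnd1 was lost in 8 of 20 fits that left out a library (-0.92, adjusted p = 0.178 without sham library 10). Without sham library 10 the list's median over both runs was 0.01 with 15 of 30 positive. Of 19 tested senescence genes 12 were positive with a median of 0.12, at 0.24 in titles 1 to 20 and -0.06 in titles 21 to 40. None of these lists held a gene called between mixed field and sham.

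Of 37 genes of fatty acid oxidation 6 had a positive sign and the median was -0.10, with 1 higher and 6 lower at an unadjusted p under 0.05 and 0 called. Etfdh, which passes electrons from fatty acid oxidation to the respiratory chain, spanned 223.2 to 554.7 CPM against 464.7 to 664.1 CPM, and all 10 mixed field libraries lay below the sham median of 574.7 CPM. It gave -0.24 with an SE of 0.10 (adjusted p = 0.54), the same in both runs. Angptl4, a secreted inhibitor of lipoprotein lipase that PPAR receptors induce, was the 1 gene at an unadjusted p under 0.05 on the higher side (0.66, SE 0.27, adjusted p = 0.541). The list's median was -0.24 in titles 1 to 20 and 0.01 in titles 21 to 40.

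Respiratory chain genes had opposite signs in the 2 runs. Of 48 nuclear genes of the respiratory chain 20 were positive with a median of -0.01, but the median was -0.23 with 0 of 48 positive in titles 1 to 20 and 0.20 with 37 of 48 positive in titles 21 to 40. The 13 genes of the mitochondrial genome had medians of -0.29 and 0.15 in the same order. The share of all mitochondrially encoded genes in the counts was 22.9% ± 4.05 (SD, n = 10) with the mixed field and 24.3% ± 2.15 (SD, n = 10) with sham (exact permutation test within runs, two-sided, p = 0.236; 0.354 after Benjamini-Hochberg adjustment over 3 measures). Antioxidant genes had a median of -0.04, with Prdx6, a peroxiredoxin, at -0.21 (SE 0.06, adjusted p = 0.351). Heat shock chaperones had a median of -0.04, and Hspd1, the mitochondrial chaperonin HSP60, lay below the sham median in all 10 mixed field libraries (-0.24, SE 0.08, adjusted p = 0.452). Glycolysis, cholesterol synthesis, calcium handling and ion channel genes had medians between -0.06 and -0.02.

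Interferon genes were positive in 44 of 49, with a small median of 0.13 and 0 called. Igtp, an interferon gamma induced GTPase, spanned 15.16 to 72.94 CPM against 14.27 to 22.77 CPM, at 0.63 with an SE of 0.20 (adjusted p = 0.452). The high values were those of mixed field libraries 2 (72.94 CPM) and 1 (45.1 CPM), and without library 2 Igtp was at 0.37 (SE 0.19, adjusted p = 0.654). Gbp6, a guanylate-binding protein, spanned 8.043 to 26.17 CPM against 8.184 to 15.23 CPM, at 0.52 with an SE of 0.19 (adjusted p = 0.472). The interferon list's median was 0.26 in titles 1 to 20, with 45 of 49 positive, and -0.02 with 24 of 49 positive in titles 21 to 40. Of the T and natural killer cell genes, all low, 12 of 20 could be tested, and the list's summed level was 3.994 to 31.5 CPM against 4.023 to 8.93 CPM. All 12 were positive with a median of 0.64, which was 0.13 with 9 of 12 positive without mixed field library 5. By run the median was 0.97 with 12 of 12 positive in titles 1 to 20 and -0.31 with 4 of 12 positive in titles 21 to 40. The 7 tested neutrophil genes were all positive with a median of 0.53, and S100a9, a granule protein, spanned 0.4318 to 6.316 CPM against 0 to 2.326 CPM (1.13, SE 0.58, adjusted p = 0.624). The neutrophil median was 1.43 with 7 of 7 positive in titles 1 to 20 and -0.13 with 2 of 7 positive in titles 21 to 40. B cell genes had a median of 0.16 with 11 of 14 positive, which was -0.04 with 7 of 14 positive without mixed field library 10, and by run the median was -0.05 and 0.47. The 8 MHC class II genes had a median of 0.07, made up of 0.37 with 8 positive in titles 1 to 20 and -0.30 with 1 positive in titles 21 to 40.

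Muscle and vessel genes gave no called gene either. The 13 cardiomyocyte markers had a median of -0.04 (-0.19 in titles 1 to 20 and 0.09 in titles 21 to 40), and 25 sarcomere genes a median of 0.00. Of 23 tested genes of hypertrophy and the fetal programme 14 were positive. Myh7, the slow myosin heavy chain that stressed mouse ventricles re-express, spanned 303.9 to 2535 CPM (median 548.2) against 267.9 to 575.7 CPM (median 340.4), and 9 of 10 mixed field libraries lay above the sham median (0.96, SE 0.35, adjusted p = 0.453). Its highest value was that of mixed field library 4, without which it was at 0.47 (SE 0.33, adjusted p = 0.733). Nppb, the natriuretic peptide BNP, spanned 15.56 to 377.2 CPM against 59.19 to 274.7 CPM, so that the mixed field group held both the lowest and the highest value (0.76, SE 0.35, adjusted p = 0.578). Kdr, the main VEGF receptor of endothelium, spanned 181.9 to 335 CPM against 159.5 to 243.6 CPM. Its difference was 0.62 in titles 1 to 20, where it was called (adjusted p = 0.0479), and -0.09 in titles 21 to 40, and the call was lost in 16 of 20 fits that left out a library. Of 48 fibrosis and matrix genes 35 were positive with a median of 0.10, and Mmp14, a membrane-bound matrix protease, had the smallest p (0.48, SE 0.16, adjusted p = 0.453). Eln, elastin, was separate in titles 1 to 20 (0.85) and not in titles 21 to 40 (0.02).

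The difference between mixed field and sham was also tested between the 2 runs of title numbers. The fit with an effect for each run called 15 genes in titles 1 to 20 (0.0945% of those tested; 10 higher, 0.063%, and 5 lower, 0.0315%) and 7 in titles 21 to 40 (0.0441%; 1 higher, 0.0063%, and 6 lower, 0.0378%). Tested directly, 220 genes differed between runs (1.39%), 50 (0.315%) with the more positive effect in titles 21 to 40 and 170 (1.07%) with the more negative one. At an unadjusted p under 0.05 there were 2722 such genes, 17.1% of those tested.

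Macrophage genes were among those of smallest p. Adgre1, the macrophage surface protein F4/80 (chromosome 17, 57665573 to 57790527), stood at 16.08, 13.66, 19.07, 15.31 and 27.03 CPM in mixed field libraries 1 to 5 and at 6.568, 8.353, 11.41, 9.299 and 8.367 CPM in sham libraries 1 to 5, without overlap. In libraries 6 to 10 the order was turned, with 6.693, 11.43, 4.242, 3.752 and 2.052 CPM with the mixed field and 12.95, 11.03, 11.28, 18.21 and 90.47 CPM with sham, and the groups overlapped through mixed field library 7. The effect was 1.05 (SE 0.37) in titles 1 to 20 and -2.33 (SE 0.38) in titles 21 to 40, a difference of -3.37 with an SE of 0.53 (adjusted p = 0.000209). Without sham library 10 the effect in titles 21 to 40 was -1.22 and not called (adjusted p = 0.364). Lcp1, the leukocyte actin bundler L-plastin, was separate in both runs: 37.72 to 50.45 CPM against 24.55 to 31.05 CPM in titles 1 to 20, and 16.97 to 25.56 CPM against 27.12 to 108.1 CPM in titles 21 to 40 (difference -1.80, SE 0.33, adjusted p = 0.00522). Without sham library 10 the difference of Lcp1 was -1.26 (adjusted p = 0.0688).

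The other 4 genes of smallest p also had a positive effect in titles 1 to 20 and a negative one in titles 21 to 40. F13a1, the coagulation factor XIII subunit that resident macrophages make, spanned 34.96 to 78.99 CPM against 28.77 to 41.01 CPM in titles 1 to 20, and 13.42 to 31.42 CPM against 32.74 to 47.27 CPM in titles 21 to 40 (difference -1.51, SE 0.30, adjusted p = 0.00929). Tnfrsf1b, the second TNF receptor, differed by -1.18 (SE 0.22, adjusted p = 0.00522), and was not called without sham library 10 (adjusted p = 0.0688). Rab31, a small GTPase of vesicle traffic (-0.94, SE 0.19), and Rapgef1, an exchange factor for RAP1 (-0.70, SE 0.14), each had an adjusted p of 0.00929 and groups that did not overlap in either run. Without sham library 10 Rab31 and Rapgef1 each had an adjusted p of 0.0688 and F13a1 one of 0.051, so they were not called.

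Of the 27 macrophage genes 8 were called in the difference, all 8 more negative in titles 21 to 40, against 1.07% of all genes called in that direction. Without sham library 10 only Adgre1 of the 8 was called. Beside Adgre1 and F13a1 these were the growth factor receptor Csf1r (-1.07), the mannose receptor Mrc1 (-1.12), lysozyme Lyz2 (-1.52), the complement genes C1qb (-1.16) and C1qc (-1.09) and the integrin Itgam (-1.71), named because they were called, after their values were seen. The matrix, muscle, metabolic and endothelial genes that follow were chosen in the same way. The list's median effect was 0.48 with 26 of 27 positive in titles 1 to 20 and -0.56 with 1 of 27 positive in titles 21 to 40, and -0.05 over both. Its summed level was 552.1 to 864.8 CPM against 442.3 to 626.5 CPM in titles 1 to 20, and 367.4 to 497.3 CPM against 464 to 1121 CPM in titles 21 to 40. Of the fibrosis and matrix genes 46 of 48 were positive in titles 1 to 20 (median 0.42) and 6 of 48 in titles 21 to 40 (median -0.29). In the difference 4 of the 48 were called, against 1.07% of all genes in that direction: Col8a1 (-1.57), Fn1 (-1.51), Fbn1 (-1.30) and Ccn5 (-1.94). On the opposite side 0.315% of all genes were called, with the more positive effect in titles 21 to 40. Among them were 3 of 25 sarcomere genes, the thin filament genes Tnnt2 (0.58) and Tnni3 (0.66) and Tcap (0.98). The fatty acid oxidation enzymes Eci1 (0.59) and Acaa2 (0.73), 2 of 37, and the antioxidant enzyme Sod1 (0.74), 1 of 28 tested, were also called. The endothelial receptors Kdr (-0.71) and Flt1 (-0.74) were called on the negative side. Their list as a whole had a median difference between runs of -0.04, with 9 of 20 genes positive. The sarcomere list had a median of -0.01 with 12 of 25 positive, and the fatty acid oxidation list one of 0.21 with 28 of 37 positive.

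**Figure D3:**
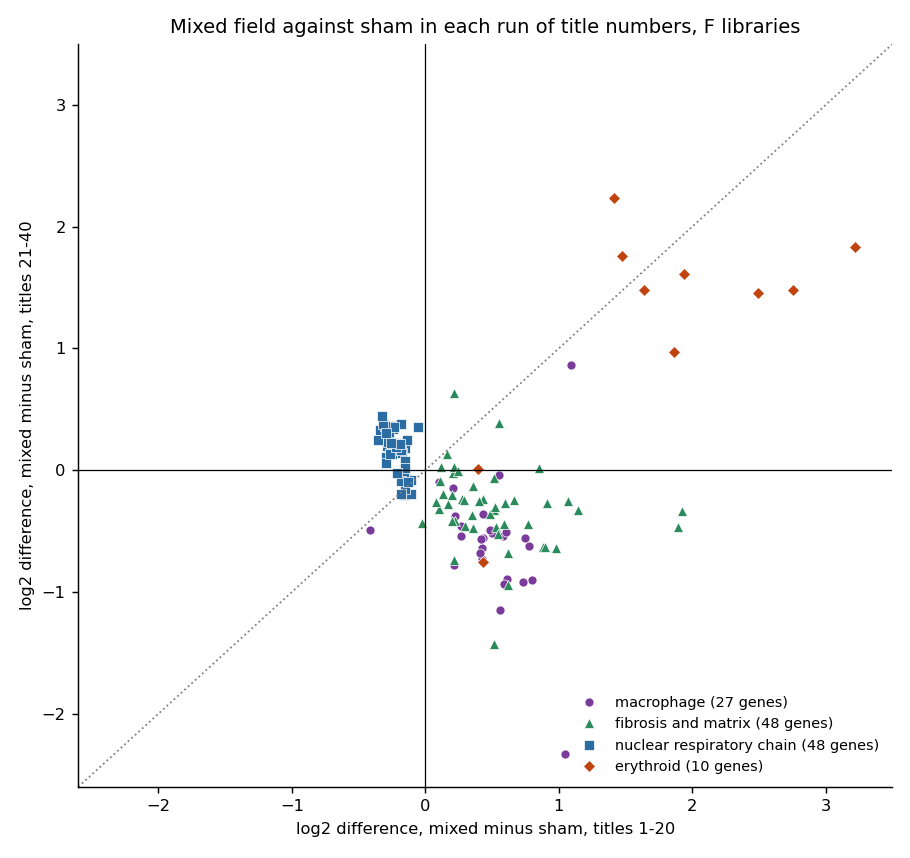
Log2 difference between mixed field and sham in titles 1 to 20 (horizontal) against titles 21 to 40 (vertical) for the genes of 4 lists in F libraries; the dotted line marks equal effects. Most macrophage and matrix genes lie right of and below 0, respiratory chain genes left of 0 and mostly above it, and most erythroid genes are positive in both runs.

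The count of calls moved with single libraries. Without sham library 10, which held the highest value of Adgre1, Lcp1 and Tnfrsf1b, 1 gene was called (Adgre1 at -2.27, adjusted p = 0.0228; 1982 genes at an unadjusted p under 0.05). The macrophage medians then were 0.49 and -0.44, with 26 and 1 of 27 positive. Without sham libraries 9 and 10 no gene was called by edgeR (2086 unadjusted), and without mixed field library 7 there were 568 calls. Leaving out mixed field library 1, 3, 5, 8, 9 or 10 gave 84, 63, 133, 64, 61 and 44 calls, and leaving out sham library 1, 3 or 4 gave 54, 117 and 136. The ribosomal gene Rn18s-rs5, whose RNA poly-A selection should largely remove, took 3.89% ± 0.612 (SD, n = 5) of counts with the mixed field and 2.54% ± 1.25 (SD, n = 5) with sham in titles 1 to 20, but 0.583% ± 0.113 (SD, n = 5) and 0.445% ± 0.0418 (SD, n = 5) in titles 21 to 40. Over both runs its share differed at an exact permutation p of 0.0383 (two-sided, within runs), or 0.115 after adjustment over 3 measures, and total counts at an exact p of 0.686. With the Rn18s-rs5 share as a term for each sex 272 genes differed between runs.

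**Figure D4:**
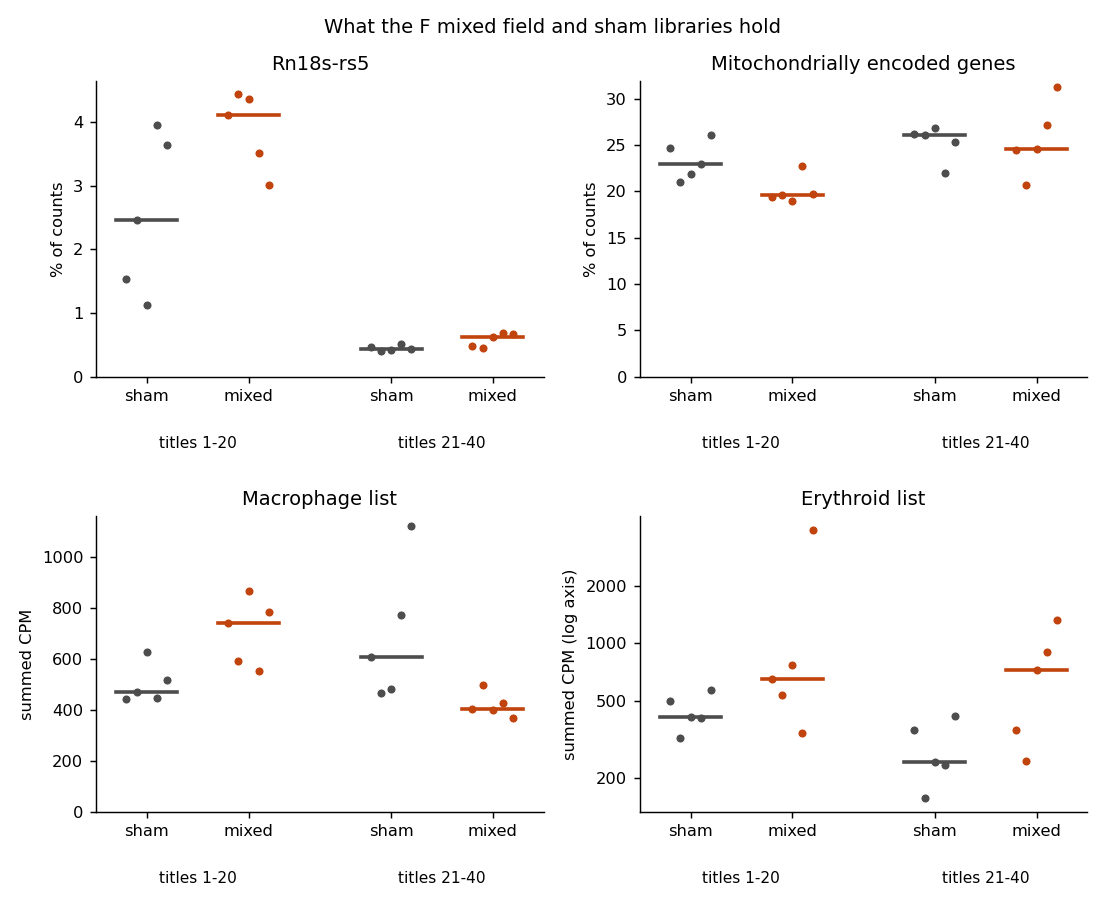
Share of counts from Rn18s-rs5 and from mitochondrially encoded genes, and summed CPM of the macrophage and erythroid lists (the last on a log axis), in each F library by group and run; lines mark medians of 5 libraries. The macrophage sum is higher with the mixed field in titles 1 to 20 and lower in titles 21 to 40, where sham library 10 reaches 1121 CPM.

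The female difference was next set against the male one, in which 25 genes were called (0.157%). The difference between the sexes was called for 19 genes (0.12%; 10, or 0.063%, with the more positive effect in F libraries and 9, or 0.0567%, with the more negative one). At an unadjusted p under 0.05 there were 1808 (11.4%). Tspan4 and the clock genes Bmal1 and Tef were among the 6 of smallest p. Bmal1 stood at 7.17 ± 4.36 CPM (SD, n = 10) with the mixed field and 3.24 ± 1.64 CPM with sham in F libraries, but at 2.84 ± 1.94 CPM and 7.43 ± 2.09 CPM in M libraries. The effect was 1.10 in F and -1.33 in M (SE 0.28 each), and the sexes differed by 2.43 with an SE of 0.40 (adjusted p = 3e-04). Tspan4 had the opposite signs, at -0.34 in F and 0.51 in M, a difference of -0.85 with an SE of 0.12 (adjusted p = 1.11e-05). Tef gave -0.30 in F and 0.49 in M, a difference of -0.79 with an SE of 0.15 (adjusted p = 0.00336). In each of these 3 genes the M sham mean (Tspan4 22.7 CPM, Tef 161.6 CPM) was nearer to the F mixed field mean (24.4 and 188.3 CPM) than to the F sham mean (30.9 and 227 CPM).

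Spon2 differed by 2.50 with an SE of 0.46 (1.24 in F, -1.26 in M, adjusted p = 0.0031). Leo1, a subunit of the PAF1 transcription elongation complex, differed by 0.78 with an SE of 0.15 (0.25 in F, -0.53 in M, adjusted p = 0.0031). Cys1, a protein of the primary cilium, differed by -0.93 with an SE of 0.19 (-0.15 in F, 0.78 in M, adjusted p = 0.0104). Over the clock list 5 of 21 genes had a positive difference and the median was -0.43, with Bmal1 called higher and Tspan4 and Tef lower. Without Tspan4 the median over 20 genes was -0.39. The erythroid list was positive in 10 of 10 with a median of 2.19 and 0 called, and its M median was -0.42. With 2 principal components of the clock genes as terms in the fit 0 genes were called by edgeR (2178 unadjusted). The components were made from the clock list itself, with Bmal1, Tspan4 and Tef in it, so the loss of these calls is partly built in. With titles 21 to 40 alone 0 were called, against 9 with titles 1 to 20 alone. DESeq2 called 64 genes with all libraries. Leaving out mixed field library 6, 7, 8 or 10 gave 38, 30, 12 and 11 calls, and sham library 6 or 9 gave 12 and 29.

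**Figure D5:**
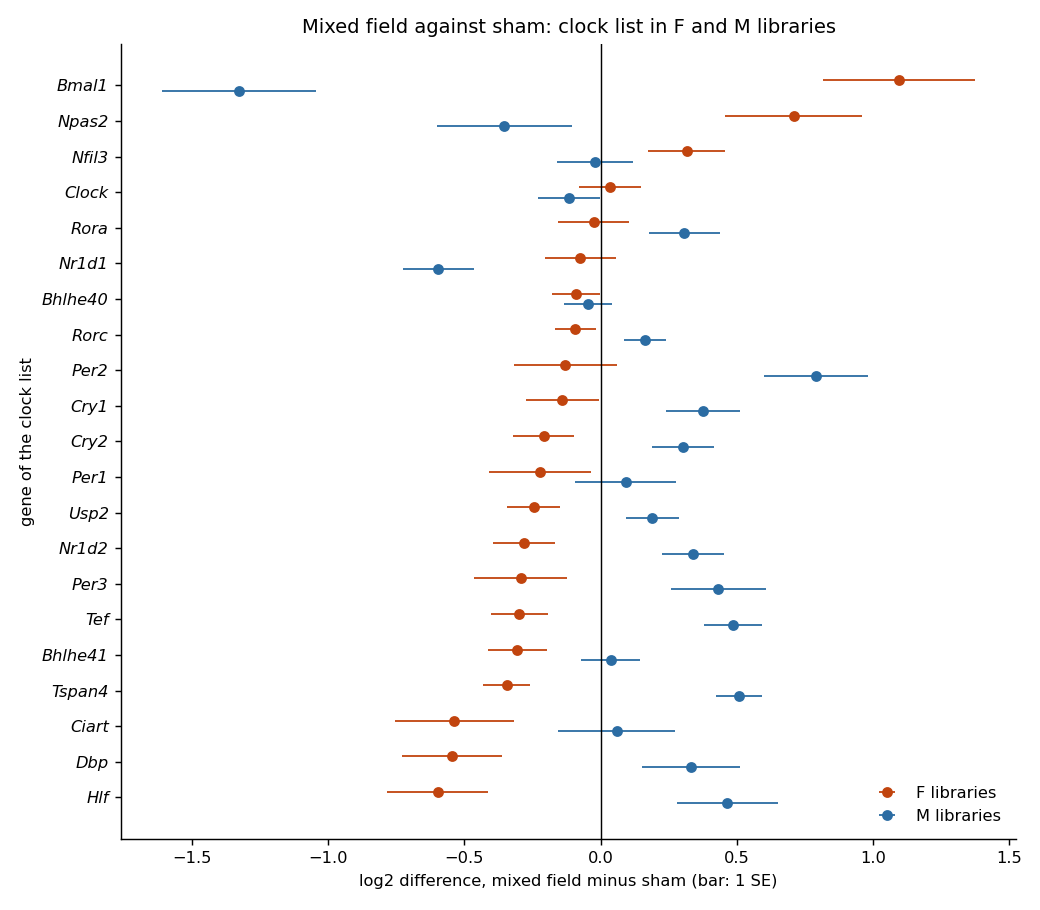
Log2 difference between mixed field and sham with bars of 1 SE for the 21 genes of the clock list, in F libraries (orange) and M libraries (blue), ordered by the F value. Bmal1 is at 1.10 in F and -1.33 in M, and Tspan4 at -0.34 in F and 0.51 in M.

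Against gamma rays at 100 cGy in female mice, a field that differed in dose as well as in kind, 7 genes were called (0.0441%; 2601 at an unadjusted p under 0.05, 16.4%). Of the 7 called, 1 was higher (0.0063%) and 6 lower (0.0378%). Mamstr, a coactivator of the muscle factor MEF2, was the higher one, at 9.77 ± 1.05 CPM (SD, n = 10) against 6.32 ± 0.889 CPM (SD, n = 9) with gamma rays, gamma libraries 8 and 9 being averaged (0.63, SE 0.11, adjusted p = 0.00176). Sham libraries stood at 8.996 ± 1.476 CPM, near the mixed field. The differences, SEs and adjusted p-values in brackets are those of the fit that held gamma libraries 8 and 9 separately. Cd36, the main fatty acid transporter of the heart, was lower with the mixed field at 1448 ± 177.5 CPM against 1890 ± 207.9 CPM (SD, n = 9) (-0.37, SE 0.08, adjusted p = 0.0361), with sham at 1535 ± 241.6 CPM. Kcnk1, a potassium channel (-1.15), Hsd17b11, a lipid droplet dehydrogenase (-0.45), Arhgap12 (-0.36), Itpkc, an inositol phosphate kinase (-0.66), and Cul5, a ubiquitin ligase scaffold (-0.34), were the other 5 called lower. With gamma libraries 8 and 9 summed as 1 library 3 genes were called, all among the 7: Mamstr, Kcnk1 and Arhgap12. Cd36, Hsd17b11 and Itpkc then each had an adjusted p of 0.0622 and Cul5 one of 0.0825. Of the 20 fits that left out a mixed field or sham library, the call was lost in 7 for Cd36, 13 for Cul5, 5 for Itpkc and 4 for Hsd17b11, and the highest adjusted p was that without mixed field library 10 (Cd36 0.158, Cul5 0.225). Without mixed field libraries 5 and 10, 1 gene was called. Leaving out mixed field library 5, 8, 9 or 10 gave 3 calls each, library 6 or 7 gave 24 each, and sham library 9 gave 11. Without gamma library 7, whose Xist was low for a female mouse, 3 were called.

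Both fields were compared with the same sham libraries, so their values are only set side by side. Gamma rays gave 4 called genes against sham (0.0252%), or 3 with gamma libraries 8 and 9 summed. Bmal1 was at 1.50 with gamma rays and 1.10 with the mixed field, Tspan4 at -0.48 and -0.34, Dbp at -0.91 and -0.54, and Mamstr at -0.52 and 0.12. Hba-a1 was at 0.11 with gamma rays and 1.60 with the mixed field, and the mixed field exceeded gamma rays by 1.50 with an SE of 0.43, which did not pass the test (adjusted p = 0.119).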

How the data were processed

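RNA from left ventricular tissue was poly-A selected and sequenced in pairs, per the labels' protocols. The authors deposited whole read counts per gene, without normalization, for 80 libraries; STAR 2.7.8a, FastQC 0.11.9 and the GRCm39 build stand in the submitters' processing notes, while how reads were counted, with or without strand, and against which gene models is not given in the sources used here. The table lists 56941 genes, and of these 56323 matched the GENCODE annotation used for names and positions.

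The 10 mixed field and 10 sham F libraries were taken by title. All 80 libraries entered 1 fit of edgeR 4.0.16 (R 4.3.3; quasi-likelihood test, TMM scaling, low-count filter by group), with a coefficient per group and a term for titles 1 to 20 or 21 to 40 in each sex. It tested 15879 genes, which held at least 99.825% of each library's counts, and Benjamini-Hochberg adjusted p-values under 0.05 were called. The difference between runs came from a fit with a coefficient per group and run. Total counts of 13532930 to 19746067 and a biological coefficient of variation of 18.5% set the precision. Shares of counts were compared by exact permutation within runs (63504 arrangements). Alternatives were DESeq2 1.42.0, voom in limma 3.58.1, other filters, samples and terms, and leaving out each library. Promoter windows are RefSeq's on GRCm38.p6.

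Named genes were the 20 of smallest p, up to 2 of smallest p in each of 37 lists, and up to 6 called genes for each difference; others are said to be chosen after their values were seen. Some genes that this rule names are not reported here. Members and lists were chosen with earlier results of these data known, and lists were given no test.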

Additional observations from a re-analysis of the deposited data

Results flagged for a closer look

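Of 74 groups of 10 libraries examined, 9 held a library whose gap to the others was large for the group's range. The cut-off is one that normally distributed values pass about 1 time in 20. Most groups were genes picked by their values in these libraries, and the same libraries recur. That rate therefore does not hold here, and the count shows no excess over chance. Mixed field library 5 was the highest of its group in Tent5c (27.76 CPM), Hba-a1 (1313 CPM) and Alas2 (114.4 CPM). Mixed field library 10 was the highest in Slc25a37 (47.52 CPM) and Mast2 (338.9 CPM) and the lowest in Sypl1 (45.94 CPM). Sham library 10 was the highest in the leukocyte genes Adgre1 (90.47 CPM), Lcp1 (108.1 CPM) and Tnfrsf1b (28.51 CPM).

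The effect of the mixed field differed between the runs of titles, by edgeR's test of the difference, in Adgre1 (-3.37 on the log2 scale), Lcp1 (-1.80), Tnfrsf1b (-1.18), F13a1 (-1.51), Rab31 (-0.94) and Rapgef1 (-0.70). It differed between F and M libraries in Tspan4 (-0.85), Bmal1 (2.43), Spon2 (2.50), Leo1 (0.78), Tef (-0.79) and Cys1 (-0.93).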

How the results depend on the processing

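Between mixed field and sham, 0 genes were called by edgeR in every alternative except titles 1 to 20 alone (39) and titles 21 to 40 alone (4), and voom called 1; leaving out each library in turn gave 0 to 0. The 220 genes that differed between runs became 114 with voom, 385 with the 40 F libraries alone, 59 with the 20 libraries alone, 6 without mixed field libraries 5 and 10 and 0 without sham libraries 9 and 10 (both chosen after seeing the data), and 1 to 568 on leaving out each library. The 19 genes that differed between sexes became 64 with DESeq2, 30 with no low-count filter, 5 with no run term, 9 with titles 1 to 20 alone, 0 with titles 21 to 40 alone, 0 with the clock components as terms, 8 with the Rn18s-rs5 share as a term, 12 without mixed field libraries 5 and 10, and 11 to 38 on leaving out each library. The 7 genes between mixed field and gamma became 66 with DESeq2, 13 with voom, 2 with no low-count filter, 4 with no run term, 38 with titles 1 to 20 alone, 421 with titles 21 to 40 alone, 3 with the clock components, 14 with the Rn18s-rs5 share, 1 without mixed field libraries 5 and 10, 3 without gamma library 7, 3 with gamma libraries 8 and 9 summed as 1 library (chosen after seeing the data; the run difference then gave 173, all among the 220), and 3 to 24 on leaving out each library. Tef's F minus M difference turned from -0.79 to 0.001 with the clock components as terms. These components were made from the clock list itself, which holds Tef, Bmal1 and Tspan4. A smaller difference in such genes is therefore partly built in, and the part of the clock was not tested. Among single genes and lists, 2530 values under an alternative were counted as unchanged. For a gene this meant the same direction and side of the threshold. For a list's median it meant a move smaller than its spread, whatever its sign. Of the rest, 75 gene values no longer passed the threshold, 1 gene value turned and 52 list medians moved by more than their spread. Where no value above shows it, the cause was not tested. No paired analysis was possible because the mixed field and sham groups share no title number, and the library numbers used here follow accession order.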

Other observations

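The remaining cell type lists gave the following values in F libraries, with 0 genes called by edgeR between mixed field and sham. Skeletal muscle genes had a median log2 difference of 0.31 with 7 of 8 tested genes positive, and atrial muscle genes 0.16 with 12 of 17 positive. Valve and chondrocyte genes had a median of 0.22 with 5 of 6 positive (0.69 in titles 1 to 20 and -0.32 in titles 21 to 40), and epicardial genes 0.25 with 5 of 7 positive (-0.01 and 0.12). Fibroblast markers (-0.04, 9 of 20 positive), adipocyte markers (-0.04, 2 of 7 positive) and Schwann cell markers (-0.05, 4 of 10 positive) had medians below 0. By run, in the same order of titles, these medians were 0.13 and -0.21 for fibroblast, -0.24 and 0.27 for adipocyte and 0.10 and -0.17 for Schwann cell markers. Smooth muscle and pericyte genes had a median of 0.01 with 9 of 15 tested genes positive (0.02 and -0.08 by run). Endothelial genes had a median of 0.08 with 14 of 20 positive (0.05 and -0.06 by run). Vegfa, the main endothelial growth factor and chosen after its values were seen, stood at 508.4 ± 119.7 CPM (SD, n = 10) with the mixed field and 361.5 ± 38.67 CPM (SD, n = 10) with sham, a log2 difference of 0.49 with an SE of 0.14 (adjusted p = 0.351).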
